A study of Acomys cahirinus and Mus musculus with 24 samples.

Results

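Skin wounds of the African spiny mouse, Acomys cahirinus, were compared 14 days after injury with unwounded skin of the same species. The comparison used 8 of the 24 libraries of the study, 4 from day 14 wounds and 4 from day 0 skin. It covered 15283 genes, the features of the Acomys table that carry a gene symbol and passed a filter on low counts, out of 16514 with a symbol. All animals were adults, and all tissue came from the back; a full-thickness excision, 8 mm across when made, was allowed to heal for 14 days, and the day 0 group had no wound. The labels give no genotype, strain or treatment beyond the wound for these animals and name no transgene. Nor do they tie each library to an animal of its own, so the p-values rest on differences among libraries, which may be technical. Day 7 wounds of Acomys (4 libraries) and skin and day 14 wounds of adult CD-1 mice, an outbred Mus musculus stock (3 and 4 libraries), served for comparison.

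An excised wound is first closed by migrating keratinocytes and filled by granulation tissue, in which fibroblasts lay down a provisional matrix of fibronectin and tenascin before fibrillar collagen. In most adult mammals this tissue becomes a scar without hair follicles, fat or muscle. Spiny mice shed skin easily and are known for closing such wounds with little scarring and with new hair follicles, and the dorsal skin of rodents lies on a sheet of striated muscle, the panniculus carnosus.

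Library totals were 13090599 to 18037444 expected counts in skin and 15641918 to 18470245 in day 14 wounds. Levels are given as CPM, counts scaled to a common library size, in the order of replicates 1 to 4, and changes as log2 fold changes of wound over skin ± SE. The words rose and fell are kept for genes that passed edgeR's quasi-likelihood test at a Benjamini-Hochberg adjusted p under 0.05. Levels of different genes are not compared, since CPM is not corrected for length. The labelled tissue matched its markers in part: collagen Col3a1 and the basal keratin Krt14 were present in all 8 libraries, whereas Krt5, the usual partner of Krt14, was at 4.997, 7.14, 3.19 and 4.32 CPM in skin, and filaggrin (Flg), a barrier protein, was absent from the table.

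At day 14, 31.1% of the 15283 genes differed from skin, 2759 higher (18.1%) and 1997 lower (13.1%), and the median log2 fold change was 0.07. These shares are the background against which the counts below are read. The 4 wound libraries lay wholly above the 4 skin libraries for 18.2% of the genes and wholly below for 13.4%. Changes of at least 2-fold made up 8.4% of the genes upwards and 5.65% downwards. Among 20770 assembly features without a symbol, which are not described further, 7.04% were higher and 8.57% lower. Genes were grouped into 40 lists by tissue, cell type or pathway. The lists were chosen with earlier results of these data known. Their shares therefore describe the members chosen and are no test of a list. Some genes stand in more than 1 list. Matrix, embryonic muscle, imprinted growth and cell division lists held large shares of risen genes, and lipid synthesis, adipocyte and epidermal barrier lists large shares of fallen ones. Where a list had no call in 1 direction by edgeR, which held 12 times, at most 1 member had an unadjusted p under 0.05 in that direction and DESeq2 called at most 1.

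**Figure D1:**
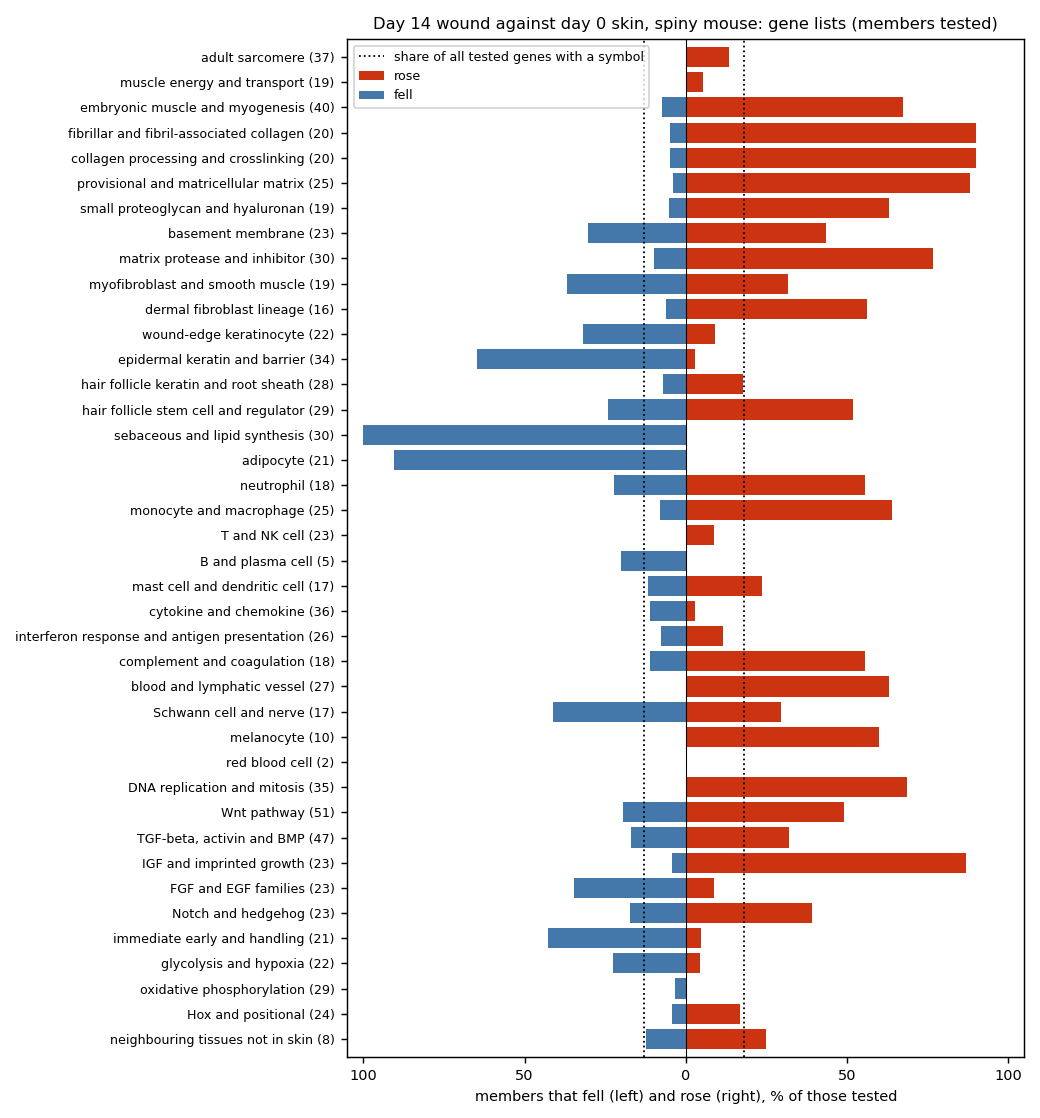
Share of the tested members of each gene list that rose (right) or fell (left) in the day 14 wound against day 0 skin, in percent, with the number tested in brackets. Dotted lines mark the shares among all 15283 genes, 18.1% higher and 13.1% lower; all 30 lipid synthesis genes fell, and 18 of 20 fibrillar collagen genes rose.

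Genes of forming muscle rose together, while genes of mature muscle were near their skin level. In the list of embryonic muscle and myogenesis, 27 of 40 tested members rose, 3 fell, and the median was 1.27. Myh3, the embryonic myosin heavy chain of newly made fibres, stood at 0.625, 3.30, 1.13 and 5.06 CPM in the 4 skin libraries and at 144, 136, 175 and 91.5 CPM in the 4 wounds. The groups did not overlap, and Myh3 rose by 5.77 ± 0.55 (adjusted p = 3.04e-05). In bulk tissue, more cells of a type and more RNA per cell cannot be told apart, here or in the results that follow.

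The regulators that make a myoblast rose as well. Myog, the factor that starts differentiation, was at 1.56, 0.628, 0.598 and 2.77 CPM in skin and 9.34, 10.3, 12.2 and 7.98 CPM in the wounds, a rise of 2.82 ± 0.35 (adjusted p = 1.52e-05). Myf5, which commits cells to the muscle lineage, was at 0.687, 0.392, 0.731 and 0.337 CPM in skin and 3.62, 4.83, 3.96 and 2.47 CPM in the wounds, and rose by 2.75 ± 0.34 (adjusted p = 1.10e-05). Every wound library was above every skin library for both. Myod1, the myoblast determination factor, rose by 1.23 ± 0.31 (adjusted p = 0.00681), but wound replicate 1 was at 2.92 CPM, below skin replicate 1 at 3.37 CPM. Pax7, the marker of muscle stem cells, was low throughout: it was at 1.19, 0.157, 0.797 and 0.405 CPM in skin and 1.78, 1.95, 1.80 and 2.36 CPM in the wounds, and rose by 1.58 ± 0.44 (adjusted p = 0.0146).

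Fetal forms of contractile and junction proteins rose with them. Actc1, the cardiac actin that fetal skeletal muscle also uses, was at 1.44, 3.06, 2.72 and 4.18 CPM in skin and at 102, 132, 167 and 91.1 CPM in the wounds, and rose by 5.43 ± 0.29 (adjusted p = 3.31e-09). Myl4, the embryonic light chain, was at 0, 0.0785, 0.199 and 0.0675 CPM, or 5 counts in all, in skin and at 6.43, 8.48, 9.89 and 6.98 CPM in the wounds (adjusted p = 2.29e-09). Tnnt2, a troponin T of heart and embryonic muscle, rose by 3.50 ± 0.29. The acetylcholine receptor is built with a gamma subunit before a muscle fibre is innervated. That subunit, Chrng, was at 1.06, 1.57, 0.863 and 2.43 CPM in skin and 12.2, 14.24, 18.7 and 9.34 CPM in the wounds and rose by 3.20 ± 0.30 (adjusted p = 5.57e-07). Chrna1, its alpha subunit, rose by 2.02 ± 0.21, and Ncam1, an adhesion molecule of myotubes and of nerve, by 2.25 ± 0.19. Myh8, the perinatal myosin, stood at 1.12, 0.392, 0.797 and 0.405 CPM in skin and 0.432, 1.63, 1.08 and 0.682 CPM in the wounds, with overlapping groups (0.42 ± 0.44, adjusted p = 0.567). The 3 members that fell were Lrp4, a receptor of the nerve-muscle junction that skin also expresses (-1.04 ± 0.15), the growth factor receptor Met (-0.89 ± 0.14) and Notch3, a receptor of vessel walls and muscle stem cells (-0.82 ± 0.16).

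Adult muscle genes were abundant in both groups. In the adult sarcomere list 5 of 37 members rose and none fell, beside 18.1% and 13.1% of all genes, with a median of 0.34. Acta1, the adult skeletal actin, stood at 1245, 635, 825 and 685 CPM in skin and 699, 1562, 1158 and 973 CPM in the wounds (0.37 ± 0.22, adjusted p = 0.268). Ckm, the muscle creatine kinase, was at 1012, 506, 748 and 484 CPM in skin and 406, 1151, 890.3 and 723 CPM in the wounds (0.21 ± 0.44, adjusted p = 0.803). The groups overlapped for both genes. The giant sarcomere protein gene Ttn (0.22 ± 0.48, adjusted p = 0.814) and the fast myosin Myh4 (0.13 ± 0.47, adjusted p = 0.889) also overlapped, as did the slow myosin Myh7 (-0.59 ± 0.46, adjusted p = 0.427).

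The 5 members that rose were Tnni1 (1.41 ± 0.27), Tnnt1 (0.82 ± 0.21) and Tnnc1 (0.96 ± 0.19), which encode the slow troponins, the Z-disc protein Myoz2 (1.09 ± 0.23) and the small muscle protein Smpx (0.96 ± 0.28). Slow troponins are also made by immature fibres. In the list of muscle energy metabolism and transport, the fatty acid carrier Fabp3 rose (0.72 ± 0.18) and none of the other 18 members was called. Skin replicate 1 held more muscle RNA than the other skin libraries: the summed level of the sarcomere list was 44474 CPM there, 14300 to 21102 CPM in the other 3, and 21765 to 38342 CPM in the wounds. Without that library 11 of the 37 members rose, Acta1 among them (adjusted p = 0.0473), and without wound replicate 1 the count was 8. The call of Smpx was lost without skin replicate 2, 3 or 4 or wound replicate 2 or 3. In the embryonic list 25 to 28 members rose when each library was left out in turn.

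**Figure D2:**
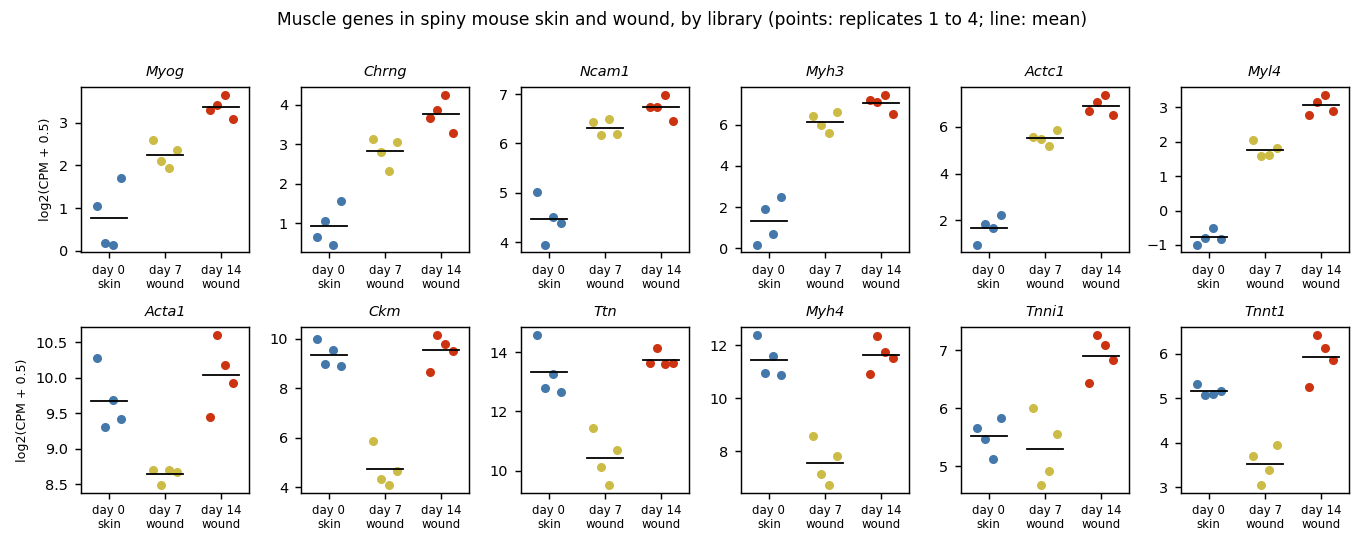
Levels of 12 muscle genes in each Acomys library, as log2(CPM + 0.5) on the vertical axis, in day 0 skin, day 7 wound and day 14 wound; points are replicates and lines are means. The upper row, from Myog to Myl4, has its highest means at day 14, although the day 7 and day 14 libraries overlap for Myh3. In the lower row Acta1, Ckm, Ttn and Myh4 are low at day 7 and overlap skin at day 14.

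The wound at day 14 was rich in matrix transcripts, both those of early granulation tissue and those of collagen fibrils. In the list of provisional and matricellular matrix, 22 of 25 members rose, 1 fell, and the median was 2.29. Tnc, the tenascin of healing and embryonic connective tissue, was at 35.6, 28.6, 28.4 and 29.5 CPM in skin and 1473, 1069.8, 1044 and 681 CPM in the wounds, and rose by 5.13 ± 0.23 (adjusted p = 7.63e-11). Fn1, fibronectin, was at 332, 125, 246 and 211 CPM in skin and 3460.4, 2682, 3066 and 2279 CPM in the wounds, a rise of 3.65 ± 0.25 (adjusted p = 2.12e-08). No wound library reached into the skin range for either gene.

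Fbn2, the fibrillin of fetal microfibrils, was at 4.43, 6.90, 3.72 and 3.17 CPM in skin and 401, 417, 523 and 334 CPM in the wounds and rose by 6.53 ± 0.32 (adjusted p = 2.32e-09). Tnn, tenascin N, was at 2.44, 1.80, 2.66 and 2.23 CPM in skin and 140.2, 62.1, 100.3 and 33.4 CPM in the wounds and rose by 5.19 ± 0.51; among the wounds replicate 1 was highest and replicate 4 lowest. Postn, periostin, rose by 2.39 ± 0.25, the large proteoglycan Vcan by 3.28 ± 0.22 and the elastic-fibre protein Emilin1 by 2.86 ± 0.18. The member that fell was Comp, a pentameric binder of collagen in tendon and cartilage. It was at 2.998, 2.59, 0.996 and 3.64 CPM in skin and 0.270, 0.156, 0.240 and 0.420 CPM in the wounds (-3.15 ± 0.40, adjusted p = 1.36e-05). Thbs1, thrombospondin 1, was at 0.43 ± 0.23 (adjusted p = 0.216), and the tenascin of resting dermis, Tnxb, at -0.64 ± 0.26 (adjusted p = 0.0895).

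In the fibrillar and fibril-associated collagen list, 18 of 20 members rose, 1 fell, and the median was 1.96. Col3a1, the collagen of young dermis and granulation tissue, was at 12101, 4609.7, 7979.6 and 4891 CPM in skin and 21310.0, 23657, 17737 and 21172 CPM in the wounds and rose by 1.504 ± 0.24 (adjusted p = 1.96e-04). Col1a1, the main chain of dermal fibrils, was at 10187, 3131, 6530.4 and 4170.0 CPM in skin and 11745, 10272, 9036 and 15937 CPM in the wounds and rose by 0.97 ± 0.29 (adjusted p = 0.0276). Wound replicate 3 lay below skin replicate 1, so its groups overlapped, and the call was lost without skin replicate 2, 3 or 4 or wound replicate 1 or 4 (largest adjusted p over all settings 0.106). Col1a2, which joins it in the type I fibril, rose by 1.07 ± 0.27 (adjusted p = 0.00922), a call lost with no filter on low counts (adjusted p = 0.0541).

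Most other collagens of this list rose as well. Col8a1, a short-chain collagen of vessel walls and remodelling tissue, was at 15.1, 16.5, 14.14 and 18.1 CPM in skin and 215, 227, 249 and 117 CPM in the wounds, and rose by 3.66 ± 0.21 (adjusted p = 1.29e-09). The fibril-diameter regulator Col5a2 rose by 2.26 ± 0.19, the microfibril chains Col6a1 and Col6a2 by 2.45 ± 0.19 and 2.24 ± 0.19, Col24a1 by 2.90 ± 0.23 and the stress-linked Col12a1 by 2.08 ± 0.21. Col11a2, a cartilage collagen, fell by 0.77 ± 0.20, and Col6a5 was not called (-0.37 ± 0.43, adjusted p = 0.611).

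The enzymes that modify and crosslink collagen rose with it, 18 of 20 tested, with 1 fallen. Lox, the oxidase that starts crosslinks, was at 39.0, 27.5, 35.1 and 30.0 CPM in skin and 344, 348, 299 and 228 CPM in the wounds, a rise of 3.21 ± 0.17 (adjusted p = 3.60e-10). The prolyl hydroxylase subunit P4ha3 was at 2.56, 1.96, 2.46 and 3.10 CPM in skin and 42.9, 54.6, 45.9 and 28.4 CPM in the wounds and rose by 4.08 ± 0.23. Both sets of 4 wounds stood clear of skin. Loxl1 rose by 1.79 ± 0.21, the collagen chaperone Serpinh1 by 1.70 ± 0.19, the procollagen protease Bmp1 by 1.33 ± 0.18 and Adamts14, which removes the amino-terminal propeptide, by 2.37 ± 0.20. Pcolce2, an enhancer of carboxy-terminal cleavage, fell by 0.97 ± 0.21, and the transglutaminase Tgm2 was not called (0.25 ± 0.15, adjusted p = 0.256) except without skin replicate 1 (adjusted p = 0.0429).

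Among small proteoglycan and hyaluronan genes, 12 of 19 rose, 1 fell, and the median was 1.43. Biglycan (Bgn) rose by 3.16 ± 0.15, lumican (Lum) by 2.75 ± 0.19, asporin (Aspn) by 2.25 ± 0.18 and osteoglycin (Ogn) by 1.85 ± 0.21, all of them leucine-rich proteins that coat fibrils. Keratocan (Kera) was at 0, 0.0785, 0.0664 and 0 CPM, 2 counts in all, in skin and at 2.27, 5.45, 3.60 and 1.36 CPM in the wounds. Hapln3, a link protein of hyaluronan, was at 0.0625, 0.157, 0.0664 and 0.0675 CPM in skin and 2.70, 3.97, 1.98 and 1.57 CPM in the wounds, while its relative Hapln1 fell by 1.86 ± 0.27.

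Proteases that turn matrix over rose as a group, 23 of 30 tested, with 3 fallen and a median of 1.5. Adamts4, which cuts versican and aggrecan, was at 1.12, 0.785, 0.465 and 0.742 CPM in skin and 21.5, 20.001, 18.4 and 14.64 CPM in the wounds and rose by 4.56 ± 0.24 (adjusted p = 5.26e-10). Adamts16 rose by 5.45 ± 0.35, Adam12 by 3.93 ± 0.28, the gelatinase Mmp9 by 2.96 ± 0.46, the collagenase Mmp13 by 2.95 ± 0.40, Mmp23 by 2.32 ± 0.20, the plasminogen activator Plat by 2.58 ± 0.18 and the fibroblast protease Fap by 1.498 ± 0.18. The inhibitor Timp3 fell, from 485, 434, 373 and 414 CPM in skin to 178, 178, 197 and 219.9 CPM in the wounds (-1.14 ± 0.13, adjusted p = 3.99e-06). Mmp8, a collagenase of neutrophils, fell by 1.42 ± 0.28, and Adamts5 by 0.54 ± 0.19, a call kept without skin replicate 4 and lost without any other single library (adjusted p up to 0.180).

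**Figure D3:**
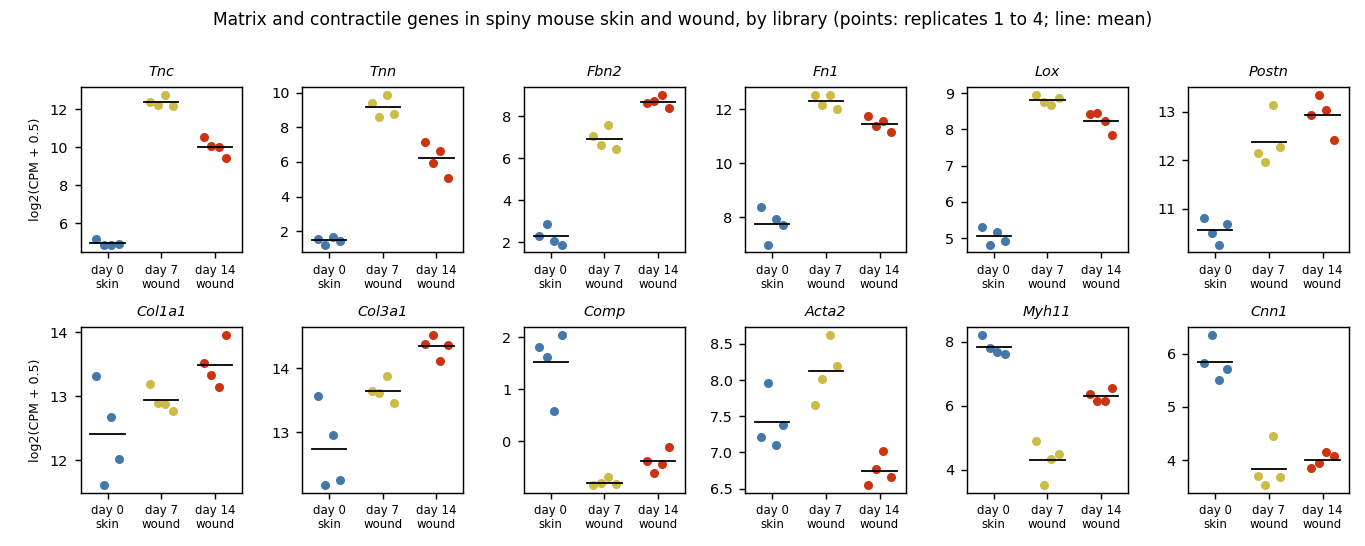
Levels of 8 matrix genes (Tnc, Tnn, Fbn2, Fn1, Lox, Postn, Col1a1, Col3a1), the matrix gene Comp and 3 contractile genes in each Acomys library, as log2(CPM + 0.5) on the vertical axis, by day. The 4 day 14 wounds (right in each panel) lie above skin for Tnc, Tnn, Fbn2, Fn1, Lox, Postn and Col3a1, overlap it for Col1a1, and lie below it for Comp, Acta2, Myh11 and Cnn1.

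The combined list of myofibroblast and smooth muscle genes moved in both directions, with 6 of 19 risen, 7 fallen and a median of -0.02. Acta2, the smooth muscle actin that also marks myofibroblasts, was at 148, 249, 137 and 165 CPM in skin and 93.1, 108, 129 and 100.5 CPM in the wounds and fell by 0.70 ± 0.20 (adjusted p = 0.0190). The call was lost without skin replicate 2 or wound replicate 1, 2 or 4, and with no filter on low counts (adjusted p up to 0.0978). Myh11, the smooth muscle myosin, was at 299.6, 224, 205 and 197 CPM in skin and 83.2, 70.0, 70.8 and 93.5 CPM in the wounds (-1.54 ± 0.22, adjusted p = 8.11e-05).

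Calponin (Cnn1) fell by 1.90 ± 0.21, the visceral actin Actg2 by 2.23 ± 0.35, leiomodin (Lmod1) by 1.17 ± 0.25 and the pericyte proteoglycan Cspg4 by 0.72 ± 0.15. In the same list the collagen-binding integrin Itga11 rose by 3.02 ± 0.20, the fibroblast cadherin Cdh11 by 2.92 ± 0.18, the growth factor receptors Pdgfra and Pdgfrb by 1.76 ± 0.20 and 1.27 ± 0.16, and the endothelin receptor Ednra by 1.94 ± 0.19. In the dermal fibroblast lineage list, 9 of 16 rose and 1 fell. Dlk1, a marker of fetal dermis and preadipocytes, was at 0.0625, 0, 0.133 and 0.0675 CPM, 4 counts in all, in skin and at 4.64, 4.36, 5.40 and 3.83 CPM in the wounds. The mesenchymal factors Twist1, Twist2, Tbx18 and Tcf4 rose by 1.11, 2.18, 2.62 and 0.91, and Sox9, a factor of follicle and cartilage cells, fell by 1.07 ± 0.15.

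Basement membrane genes split, with 10 of 23 risen and 7 fallen. Lama1, Lama4, Lamb1 and Nid2, which encode parts of the membranes of vessels, muscle and stroma, rose by 2.41, 1.21, 1.55 and 1.57. Lama3, Lamb3, Col17a1 and Itgb4, parts of the hemidesmosome complex under keratinocytes, fell by 0.90, 1.24, 1.06 and 1.004, and so did Col4a6 by 1.14. Col7a1, the anchoring fibril of the same junction, went the other way, from 53.8, 63.7, 69.2 and 58.4 CPM in skin to 229, 171, 148 and 196 CPM in the wounds (1.60 ± 0.21, adjusted p = 3.32e-05).

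Epidermal genes were lower in the wound. In the list of epidermal keratins and barrier genes, 22 of 34 fell, 1 rose, and the median was -0.86. Spink5, the inhibitor of skin kallikreins, was at 598, 1088, 549.7 and 1049.7 CPM in skin and 221, 211, 241 and 253 CPM in the wounds (-1.83 ± 0.19, adjusted p = 1.72e-06). Krt80 and Krt79, keratins of differentiating cells and of the follicle funnel, fell by 1.69 and 1.69, the kallikrein Klk7 by 1.38, the barrier lipoxygenase Aloxe3 by 1.38 and the cornified envelope protein Lor by 1.14. No wound library reached the skin range for any of these 6 genes.

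Krt14 was at 477, 723, 373 and 849 CPM in skin and 358, 429, 364 and 305 CPM in the wounds and fell by 0.74 ± 0.20 (adjusted p = 0.0118); the call did not hold without skin replicate 4 or with no filter (adjusted p up to 0.0929). Involucrin (Ivl), an early envelope protein, was the member that rose (1.17 ± 0.36, adjusted p = 0.0343), but its groups overlapped and the call was lost without skin replicate 1, 2 or 3 or wound replicate 2 or 3, with no filter and with only the groups compared (adjusted p up to 0.114).

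The keratins that mark a healing edge were also below skin. In the wound-edge keratinocyte list 7 of 22 fell, 2 rose and 13 were not called. The list as a whole was not shifted below skin: its median was 0.12, and -0.69 to 0.43 over the alternative settings. When each library was left out in turn, 5 to 9 members fell. Krt6a was at 81.1, 109.7, 70.5 and 135 CPM in skin and 45.8, 37.9, 38.4 and 46.5 CPM in the wounds and fell by 1.23 ± 0.18 (adjusted p = 5.33e-05). Its partner Krt16 was at 13.5, 26.0, 15.6 and 23.3 CPM in skin and 6.48, 4.98, 6.71 and 6.82 CPM in the wounds and fell by 1.64 ± 0.21 (adjusted p = 1.35e-05). The groups did not overlap for either. Krt17 fell by 1.84 ± 0.37, the cytokine Il20 by 1.51 ± 0.36 and the growth factor Ereg by 1.13 ± 0.24. The integrins Itga5 and Itgb6, receptors for fibronectin and latent TGF-beta, rose by 1.495 ± 0.16 and 0.71 ± 0.17. Reads can be shared among near-identical keratins, so values of single keratins are uncertain.

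Hair shaft and root sheath genes were high in the wounds, but 1 skin library was high too. Krt25, a keratin of the inner root sheath, was at 13.8, 256, 16.4 and 2.16 CPM in skin and 164, 410.4, 516 and 126 CPM in the wounds (2.08 ± 1.18, adjusted p = 0.267). Krt71, of the same sheath, was at 17.3, 224, 31.7 and 2.497 CPM in skin and 188, 481, 491 and 156 CPM in the wounds (2.26 ± 1.07, adjusted p = 0.180). In both, skin replicate 2 stood far above the other skin libraries and within the wound range, and wound replicates 2 and 3 were above replicates 1 and 4. The list of 28 hair keratin and root sheath genes moved in the same way: its median level was 4.30 on the log2(CPM + 0.5) scale in skin replicate 2, 0.62 to 1.34 in the other 3 skin libraries and 2.77 to 5.76 in the wounds.

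With all libraries, 5 of the 28 rose, 2 fell, and the median was 2.17. Those that rose were Krt82, a hair cuticle keratin (3.65 ± 0.72), Krt35 (2.72 ± 0.71), Krt73 (2.08 ± 0.65), the follicle deiminase Padi3 (2.02 ± 0.46) and S100a3, a calcium-binding protein of the cuticle (4.12 ± 1.15). Without skin replicate 2, 22 of 28 rose, Krt25 (adjusted p = 0.00378) and Krt71 (adjusted p = 0.00936) among them, and the median was 4.92. Without any other single skin library, or without wound replicate 2 or 3, 2 of 28 rose, and Krt35, Krt73 and S100a3 were not called. The 2 that fell, Krt75, a keratin of the companion layer (-1.48 ± 0.23), and Krt40 (-1.12 ± 0.29), were below skin in every wound library. The source of the high levels in skin replicate 2 was not tested.

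Regulators of the follicle rose in more members, 15 of 29, with 7 fallen. Shh, the hedgehog ligand of a growing hair bud, was at 0.687, 0.863, 1.39 and 0.742 CPM in skin and 3.78, 6.30, 7.49 and 4.25 CPM in the wounds and rose by 2.55 ± 0.33 (adjusted p = 1.48e-05). Its receptor and target Ptch1 was at 41.5, 38.1, 53.4 and 34.8 CPM in skin and 107, 115, 154 and 128 CPM in the wounds and rose by 1.59 ± 0.16 (adjusted p = 9.94e-07), and its effector and target Gli1 rose by 1.82 ± 0.22. Skin replicate 2 was not high for these genes, and wounds and skin did not overlap. Lef1, the Wnt effector of hair matrix and dermal papilla, was at 2.62, 3.06, 3.92 and 3.04 CPM in skin and 8.86, 26.6, 17.6 and 8.13 CPM in the wounds and rose by 2.26 ± 0.33 (adjusted p = 9.67e-05). Msx1, a homeobox factor of the hair matrix, rose by 2.68 ± 0.36, and Sox18, a factor of vessels and of the dermal papilla, by 1.29 ± 0.18. Lgr6, a stem cell receptor of the upper follicle and epidermis, fell by 1.42 ± 0.28, the root sheath factor Gata3 by 1.31 ± 0.19 and the follicle ligand Wnt10a by 1.01 ± 0.19. Lgr5, the marker of cycling follicle stem cells, was at 0.49 ± 0.18 (adjusted p = 0.0567), and was called without skin replicate 2 or wound replicate 1 (adjusted p down to 0.00999).

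Of 10 pigment cell genes 6 rose and none fell, and 5 rose without skin replicate 2, 3 or 4 or wound replicate 2 or 3. Mlana, a melanosome protein, stood at -0.66 ± 0.43 (adjusted p = 0.307) and fell without wound replicate 3 (adjusted p = 0.0418). Tyrp1, a melanin enzyme, was at 0.250, 0.314, 0.465 and 0.135 CPM in skin and 5.83, 16.2, 15.1 and 2.94 CPM in the wounds and rose by 5.06 ± 0.66 (adjusted p = 1.20e-04). Dct, another melanin enzyme, was at 0.562, 1.26, 0.465 and 1.28 CPM in skin and 6.81, 16.3, 17.5 and 4.72 CPM in the wounds and rose by 3.67 ± 0.45 (adjusted p = 2.92e-05). Wound replicates 2 and 3, which were high for hair keratins, were also highest for these genes. The melanosome protein Pmel rose by 1.87 ± 0.32, the pigment-granule exchanger Slc24a5 by 1.78 ± 0.30 and the endothelin receptor Ednrb by 0.73 ± 0.19. Tyr, which starts melanin synthesis, was at 0.10 ± 0.16 (adjusted p = 0.722) and Mitf, the lineage factor, at 0.21 ± 0.13 (adjusted p = 0.295).

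**Figure D4:**
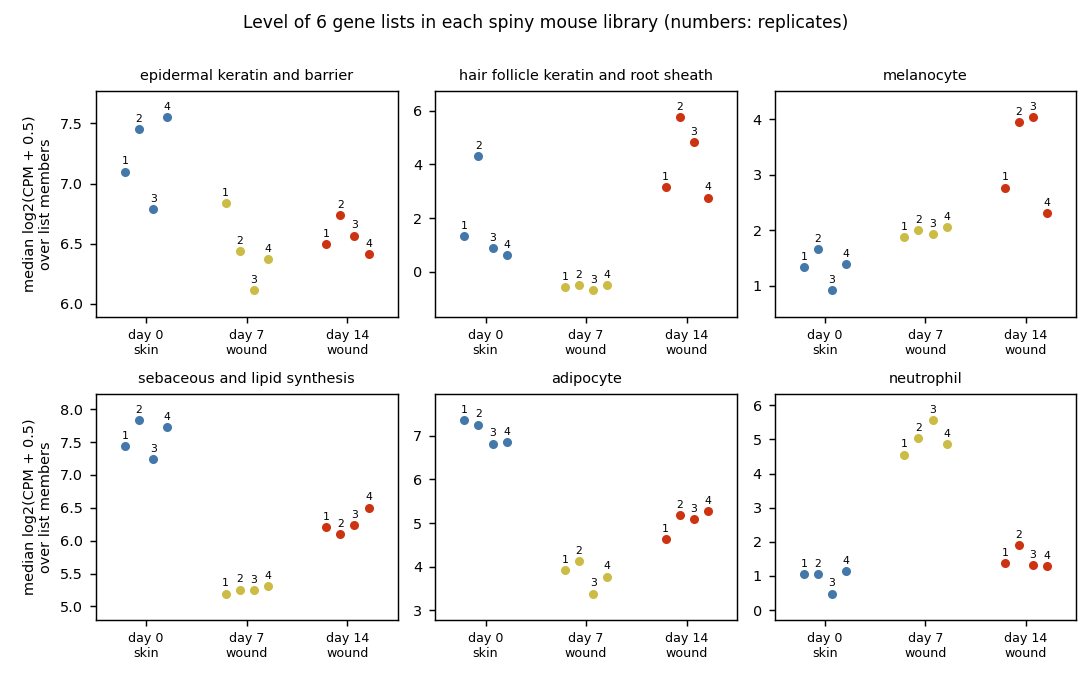
Median level of 6 gene lists in each Acomys library, as log2(CPM + 0.5) over the list's members on the vertical axis, by day, with replicate numbers. For hair keratins, skin replicate 2 (4.30) lies among the day 14 wounds (2.77 to 5.76); lipid and adipocyte lists are lowest at day 7 and between day 7 and skin at day 14.

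Lipid-making and fat-storing genes were lower throughout. All 30 sebaceous and lipid synthesis genes fell, with a median of -1.5, and 29 of them did not overlap with skin. Scd1, the desaturase of sebocytes and adipocytes, was at 848, 710.1, 1091 and 290.2 CPM in skin and 121, 121, 126 and 125 CPM in the wounds (-2.57 ± 0.30, adjusted p = 3.57e-05). Fasn, fatty acid synthase, was at 2715, 2252, 3439 and 1951 CPM in skin and 499, 399, 442 and 891 CPM in the wounds (-2.21 ± 0.25, adjusted p = 1.12e-05). Dgat2, which completes triglycerides, fell by 2.02 ± 0.15, the elongase Elovl6 by 1.63 ± 0.18 and the carboxylase Acaca by 1.199 ± 0.12. Lss, which closes the sterol rings, fell by 1.502 ± 0.16. When each library was left out in turn, 27 to 30 of the 30 fell.

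In the adipocyte list 19 of 21 fell and none rose, with a median of -2. Adipoq, the adipocyte hormone, was at 173, 152, 136 and 115 CPM in skin and 21.2, 28.2, 33.5 and 34.0 CPM in the wounds (-2.30 ± 0.22, adjusted p = 6.75e-07). Plin1, which coats lipid droplets, was at 195, 183, 144 and 129.6 CPM in skin and 21.7, 31.0, 35.1 and 38.0 CPM in the wounds (-2.37 ± 0.29, adjusted p = 4.55e-05). Every wound was below every skin library. Agpat2, Gpd1, Acsl1 and the lipase Lipe fell by 2.14, 2.08, 1.66 and 1.62. The exceptions were 2 genes that vessels and macrophages also express, Cd36 (-0.02 ± 0.24, adjusted p = 0.974) and Fabp4 (-0.39 ± 0.23, adjusted p = 0.260); without skin replicate 3 Fabp4 fell as well (adjusted p = 0.0444).

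Among immune cells, macrophage genes were higher and lymphocyte genes mostly were not called. Of 25 monocyte and macrophage genes 16 rose, 2 fell, and the median was 1.14. Msr1, a scavenger receptor, was at 8.25, 7.92, 7.504 and 28.7 CPM in skin and 164, 316, 113 and 173 CPM in the wounds and rose by 3.87 ± 0.53 (adjusted p = 4.29e-04). Trem2, a receptor of lipid-handling macrophages, was at 4.75, 4.63, 3.19 and 8.50 CPM in skin and 37.8, 79.3, 29.9 and 40.0 CPM in the wounds and rose by 3.14 ± 0.35 (adjusted p = 3.25e-05). Within each group the highest library, skin replicate 4 and wound replicate 2, was the same for both genes. The lysosomal protein Cd68 rose by 2.06 ± 0.27, complement C1qa by 1.80 ± 0.28, Gpnmb by 1.72 ± 0.25 and Emr1 (now Adgre1) by 1.55 ± 0.46, the last a call lost without skin replicate 2 or 3 or wound replicate 2 or 3 and with no filter (adjusted p up to 0.108). Arg1, an enzyme of alternatively activated macrophages that epidermis also expresses, was at 74.2, 104.7, 58.3 and 132 CPM in skin and 28.9, 54.2, 69.5 and 51.2 CPM in the wounds. It fell by 0.86 ± 0.27 (adjusted p = 0.0377), which did not hold without skin replicate 2 or 4 or wound replicate 1, 2 or 4 and with no filter (adjusted p up to 0.194). Apoe, the lipid carrier, fell by 0.82 ± 0.21, a call lost with no filter.

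Neutrophil genes moved in both directions. In that list 10 of 18 rose and 4 fell, and the count of risen genes was 5, 4 and 5 without skin replicate 2, skin replicate 3 or wound replicate 2. S100a8, of the calprotectin complex, was at 4.56, 5.88, 3.65 and 7.69 CPM in skin and 25.8, 15.3, 12.7 and 6.19 CPM in the wounds and rose by 1.46 ± 0.37 (adjusted p = 0.0132); without skin replicate 3 the adjusted p was 0.0631. The formyl peptide receptors Fpr1 and Fpr2 rose by 3.12 ± 0.71 and 3.51 ± 0.72. The chemokine receptor Cxcr1 had no count in skin and 22 in the wounds. Camp, the cathelicidin, fell by 2.16 ± 0.37, and Mmp8, Padi4 and Il1r2 fell by 1.42, 1.46 and 0.75. Other cells can also express some genes of this list, whether risen or fallen.

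In the T and NK cell list 2 of 23 rose, the granzyme Gzma (2.46 ± 0.45) and the factor Tcf7 (0.80 ± 0.15), and none fell. Cd3e, the T cell receptor chain, was at -0.28 ± 0.33 (adjusted p = 0.622). Of 5 B and plasma cell genes tested, Sdc1, which keratinocytes also express, fell (-0.93 ± 0.14). Of 17 mast cell and dendritic cell genes 4 rose, among them the mast cell proteases Tpsb2 (1.07 ± 0.29) and Cma1 (1.12 ± 0.36), and 2 fell, Itgax and Cd1d1 of dendritic cells. The call of Cma1 (adjusted p = 0.0413) was lost without skin replicate 1, 2 or 3 or wound replicate 2, 3 or 4 and with no filter (adjusted p up to 0.138), and that of Tpsb2 without skin or wound replicate 3 (adjusted p up to 0.0601). The count of risen members was at most 2 without skin replicate 2 or 3 or wound replicate 2, 3 or 4, and 7 by DESeq2.

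Of 36 cytokines and chemokines 1 rose and 4 fell, beside 18.1% and 13.1% of all genes. Ccl2, which draws monocytes, rose by 1.58 ± 0.51 (adjusted p = 0.0476), a call kept only without skin replicate 4 or wound replicate 3 when single libraries were left out, and lost with no filter (adjusted p up to 0.137). Ccl27a, a chemokine of keratinocytes, fell by 1.98 ± 0.27 and Cx3cl1 by 1.49 ± 0.24. Il1b, an early inflammatory cytokine, was at 1.94, 1.57, 0.664 and 3.78 CPM in skin and 4.43, 8.56, 2.58 and 3.46 CPM in the wounds (1.23 ± 0.91, adjusted p = 0.410). Interferon genes had 3 of 26 risen and 2 fallen; Irf8 rose by 1.26 ± 0.28 and the peptide transporter Tap1 fell by 1.12 ± 0.18. Complement and coagulation genes had 10 of 18 risen and 2 fallen: the receptor C3ar1 rose by 3.13 ± 0.31, C1ra by 1.40 ± 0.20, the inhibitor Serping1 by 1.07 ± 0.17 and Thbd by 1.29 ± 0.13, while tissue factor (F3) fell by 1.38 ± 0.20 and plasminogen (Plg) by 1.44 ± 0.25.

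Vessel genes rose in 17 of 27 members and fell in none, with a median of 0.76. Pdpn, podoplanin of lymphatic vessels and activated fibroblasts, was at 9.37, 7.22, 4.52 and 10.7 CPM in skin and 53.9, 77.7, 57.4 and 48.8 CPM in the wounds and rose by 2.90 ± 0.31 (adjusted p = 1.46e-05). The angiopoietin receptor Tek rose by 1.32 ± 0.18, its ligand Angpt2 by 1.06 ± 0.20 and the lymphatic growth factor Vegfc by 1.05 ± 0.18. Pecam1, the general endothelial adhesion molecule, was at 117, 123, 98.3 and 128 CPM in skin and 129, 166, 157 and 141 CPM in the wounds, with no overlap, and was not called (0.35 ± 0.14, adjusted p = 0.0838).

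In the list of Schwann cell and nerve genes 7 of 17 fell and 5 rose. S100b fell by 1.52 ± 0.26, the glial cadherin Cdh19 by 1.06 ± 0.25, Egr2 by 1.04 ± 0.22, Erbb3 by 0.88 ± 0.16 and Mbp by 0.62 ± 0.15. Sox10, which defines the Schwann lineage, was not called (-0.31 ± 0.23, adjusted p = 0.398). Gap43, a protein of growing axons, was at 0.687, 0.235, 0.398 and 0.405 CPM in skin and 1.84, 2.33, 3.48 and 1.05 CPM in the wounds (2.27 ± 0.42, adjusted p = 5.83e-04). Nefl, a neurofilament, was at 0.125, 0.314, 0 and 0 CPM, 6 counts in all, in skin and at 7.3996, 4.202, 11.2 and 2.26 CPM in the wounds.

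The day 14 wounds carried more transcripts of dividing cells. Of 35 DNA replication and mitosis genes 24 rose and none fell, with a median of 1.12. Top2a was at 46.0, 58.6, 38.7 and 60.5 CPM in skin and 133, 166, 200.1 and 84.5 CPM in the wounds and rose by 1.52 ± 0.22 (adjusted p = 6.53e-05), and Mki67, the proliferation antigen, was at 109, 106, 87.3 and 101 CPM in skin and 208, 223, 240.0 and 139.8 CPM in the wounds and rose by 1.01 ± 0.15 (adjusted p = 9.79e-05). Wound replicate 4 was lowest among the wounds for both. The checkpoint kinase Bub1, Bub1b, the spindle motor Kif11 and the kinetochore proteins Cenpe and Cenpf rose by 1.47, 1.33, 1.22, 1.28 and 1.12.

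Genes of the IGF family and imprinted growth genes, which are expressed from 1 parental copy and in many cases turned down after birth, rose almost as a block. Of 23 IGF and imprinted growth genes 20 rose, 1 fell, and the median was 1.47. Peg3 was at 5.06, 3.69, 4.18 and 3.51 CPM in skin and 222, 155, 217 and 131 CPM in the wounds and rose by 5.45 ± 0.24 (adjusted p = 7.63e-11). Its neighbour Zim1 was at 2.81, 1.26, 1.73 and 2.36 CPM in skin and 86.0, 56.3, 73.2 and 54.3 CPM in the wounds and rose by 5.03 ± 0.28 (adjusted p = 1.67e-09). The wounds were clear of skin for both. Igf2, the fetal growth factor, was at 25.4, 15.1, 16.2 and 19.98 CPM in skin and 109, 90.2, 122 and 76.9 CPM in the wounds and rose by 2.37 ± 0.20, and the adjacent noncoding RNA H19 rose by 2.67 ± 0.35. Mest rose by 3.60 ± 0.21 and the cell cycle inhibitor Cdkn1c by 2.24 ± 0.17. Igfbp2 was the member that fell (-1.32 ± 0.23), and the receptor Igf1r was at -0.29 ± 0.15 (adjusted p = 0.196).

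In the Wnt pathway 25 of 51 members rose and 10 fell. The ligand Wnt2 was at 2.69, 1.88, 1.53 and 1.82 CPM in skin and 13.8, 13.9, 17.8 and 10.5 CPM in the wounds and rose by 2.81 ± 0.26 (adjusted p = 6.63e-07), and Wnt5a rose by 0.59 ± 0.18 (adjusted p = 0.0208), which did not hold without skin replicate 2 or 4 or wound replicate 3. The epithelial ligands Wnt3a and Wnt7b fell by 1.24 ± 0.23 and 1.22 ± 0.18. The receptors Fzd2 and Ror2 rose by 1.64 ± 0.18 and 1.41 ± 0.16. Among secreted modulators, Sfrp2 was at 12.99, 7.14, 10.5 and 7.49 CPM in skin and 103, 114, 98.3 and 66.7 CPM in the wounds (3.32 ± 0.26), and Dkk3 rose by 1.52 ± 0.14, while Sfrp5 and Dkk2 fell by 2.27 ± 0.30 and 1.53 ± 0.19. Axin2, a target that reports the canonical pathway, was at -0.12 ± 0.13 (adjusted p = 0.560).

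In the TGF-beta, activin and BMP list 15 of 47 rose and 8 fell. Tgfb3, the isoform linked to fetal healing, was at 19.2, 13.3, 15.7 and 13.5 CPM in skin and 61.7, 74.4, 91.5 and 53.2 CPM in the wounds and rose by 2.18 ± 0.19 (adjusted p = 1.56e-07). Tgfb1, the isoform linked to scarring, was at 14.74, 9.96, 8.57 and 14.44 CPM in skin and 20.7, 23.8, 17.6 and 20.3 CPM in the wounds and rose by 0.79 ± 0.17 (adjusted p = 0.00242). Inhba, the activin subunit, stood above skin in every wound and was not called (0.996 ± 0.38, adjusted p = 0.0816) with all 3 days in the fit; it was called by DESeq2 and with only the groups compared. The receptor Tgfbr2 rose by 0.75 ± 0.14, Ltbp2 by 1.45 ± 0.22 and Fstl1 by 2.78 ± 0.19, and the BMP antagonists Grem1 and Chrdl1 fell by 1.97 ± 0.22 and 1.02 ± 0.21.

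Other lists of signalling and metabolism were mixed. Of 23 FGF and EGF family genes 8 fell and 2 rose: Nrg4, Erbb2, Fgf1 and Fgfr3 fell by 1.48, 0.92, 0.77 and 0.68, and Nrg1 and Fgfr1 rose by 2.11 and 0.60. Of 23 Notch and hedgehog genes 9 rose and 4 fell; the hedgehog signal transducer Smo rose by 0.91, and the Notch ligand Jag2 and receptor Notch1 fell by 1.12 and 0.59. Genes in the oxidative phosphorylation list were near skin, with 0 of 29 risen and 1 fallen. The 1 that fell was citrate synthase (Cs), a citric acid cycle enzyme counted in that list (-0.80 ± 0.13). Of 22 glycolysis and hypoxia genes 5 fell, Egln3 by 1.70 ± 0.17 among them, and Pdk4, which shuts glucose out of oxidation, rose by 2.33 ± 0.32.

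The genes with the largest rises, by fitted fold change among those with no overlap and at least 1 CPM in the wounds, included Slc51b, a steroid transporter subunit. It had no count in skin and 155 counts in the wounds, at 1.51, 4.83, 1.08 and 2.47 CPM, which is at least 45.1-fold higher with 3 counts over the skin group as the floor. Agtr2, the angiotensin receptor of fetal tissue, was at 0.0625, 0.157, 0.0664 and 0.0675 CPM, 5 counts in all, in skin and at 19.01, 31.7, 28.2 and 20.4 CPM in the wounds (adjusted p = 7.79e-06). All wound libraries carried these transcripts. C1qtnf3, a secreted factor of cartilage and fat, was at 0.750, 1.33, 0.266 and 0.945 CPM in skin and 90.6, 106, 97.5 and 61.7 CPM in the wounds and rose by 6.77 ± 0.30 (adjusted p = 8.77e-11). Sox11, a factor of embryonic mesenchyme and neurons, was at 0.812, 0.706, 0.465 and 0.405 CPM in skin and 55.3, 51.0, 51.8 and 31.4 CPM in the wounds and rose by 6.29 ± 0.26 (adjusted p = 2.17e-11). Nrk, a kinase of the fetus and placenta, rose by 6.49 ± 0.42. The collagen Col26a1 stood at 15.0, 18.9, 24.0 and 12.1 CPM in the wounds against 7 counts in skin. Dynap, Sohlh2 and Arhgap36 had 1 count each in skin and 354, 151 and 150 in the wounds, and Fbn2, Myl4 and Kera, described above, complete these 12.

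Among the genes that fell most, Apoa1, an apolipoprotein, went from 1.94, 1.73, 2.99 and 0.877 CPM in skin to 0, 0.156, 0 and 0.157 CPM in the wounds, 5 counts in all (adjusted p = 5.23e-05). Dbp, a clock output factor whose level follows the time of day, was at 92.4, 83.4, 80.6 and 79.4 CPM in skin and 5.56, 6.62, 9.53 and 8.76 CPM in the wounds (-3.46 ± 0.20, adjusted p = 1.26e-09). Skin and wounds did not overlap for either gene, which the choice of these genes required. The hour at which tissue was taken is not given in the sources used here. The detoxifying enzyme Cyp2a5 fell by 3.37 ± 0.36, the epidermal lipoxygenase Alox12e by 3.12 ± 0.73, the chemokine Cxcl17 by 3.07 ± 0.49 and the kinase-like Plk5 by 3.03 ± 0.44. Gm6484, Gm4952, Wdr93 and 1110028F18Rik fell by 3.60, 3.04, 3.14 and 3.02, and Comp is described above.

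The comparison of day 14 with day 7 places these levels in the course of healing. Between the wounds, 34.8% of the 15283 genes differed, 19.7% higher at day 14 and 15.1% lower. Adult muscle genes moved almost uniformly: 36 of 37 sarcomere genes were higher at day 14 and 1 was lower. Ckm was at 57.2, 19.6, 16.5 and 24.9 CPM at day 7, against 406 to 1151 CPM at day 14 (4.74 ± 0.51, adjusted p = 5.49e-05), and Acta1 rose by 1.46 ± 0.23 from day 7. Among embryonic muscle genes 33 of 40 were higher at day 14 than at day 7. Myh3 was already above every skin library at day 7, at 85.0, 62.1, 47.7 and 97.2 CPM. For Myh3 itself the difference was 0.91 ± 0.43 (adjusted p = 0.154), and for Myog 1.204 ± 0.31 (adjusted p = 0.00755).

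Wound-edge keratins and neutrophil genes went the other way. Krt6a was at 2773, 2543, 2188 and 2532 CPM at day 7 and fell below its skin level by day 14 (-5.89 ± 0.21, adjusted p = 2.64e-12). S100a8 was at 1199.8, 1155, 793 and 959 CPM at day 7 (-6.10 ± 0.42, adjusted p = 5.44e-07). Of the neutrophil list 17 of 18 were lower at day 14 than at day 7, as were 18 of 22 wound-edge genes. Tnc was lower at day 14 than at day 7 by 2.34 ± 0.20 on the log2 scale and still above skin, and Fbn2 was higher by 1.72 ± 0.25. Hair keratin genes, near 0 at day 7 with Krt25 at 0.230, 0.344, 0.361 and 0.614 CPM, were higher at day 14 in 25 of 28, and 21 of 30 lipid synthesis genes were higher at day 14 than at day 7 while still below skin. The day 14 wounds enter both comparisons, so these are given side by side only.

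Whether the change at day 14 differed between species was tested in the table shared by both, where 25.1% of 14514 genes differed, 13.1% with a higher change in Acomys and 12% with a lower one. In the embryonic muscle list 26 of 38 members had a higher change in Acomys and 3 a lower one. Myh3 changed by 5.69 in Acomys and -1.64 in Mus, a difference of 7.33 ± 0.95 (adjusted p = 2.03e-05), and Myog by 2.64 and -3.34, a difference of 5.98 ± 0.93 (adjusted p = 9.42e-05). For Chrng the difference was 3.71 ± 1.37 (adjusted p = 0.0511), and it was called without Acomys skin replicate 4, Acomys wound replicate 4 or Mus wound replicate 3 (adjusted p down to 0.0241). The Mus wounds differed widely in muscle content: the summed level of 37 sarcomere genes was 26210, 588.8, 658.7 and 6863 CPM in their 4 libraries, against 70030 to 82750 CPM in Mus skin. Without the 2 lowest, replicates 2 and 3, the difference for Myh3 was 6.75 (adjusted p = 2.77e-04) and for Myog 5.37 (adjusted p = 0.00133). Of 37 adult sarcomere genes 12 had a higher change in Acomys and 3 a lower one, and of 19 genes of muscle energy and transport 14 had a higher one and none a lower one. The count of sarcomere genes with a higher change was 26 without Mus wound replicate 1, 11 without Acomys skin or wound replicate 1 and 6 or 7 without any other single library. Without Mus wound replicates 2 and 3 together, 6 sarcomere genes had a higher change and 6 a lower one, as against 8 and none of the energy genes and 25 and 3 of the embryonic ones. For Acta1 and Ckm the difference was not called with all libraries (3.84 ± 1.58, adjusted p = 0.0846, and 3.01 ± 1.76, adjusted p = 0.229); without Mus wound replicate 1 both were called (adjusted p = 0.0142 and 0.0333).

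The healing-edge keratins Krt6a and Krt16 changed in opposite directions in the 2 species. Krt6a changed by -1.27 in Acomys and 3.71 in Mus, a difference of -4.97 ± 0.45 (adjusted p = 1.66e-07), and Krt16 by -1.61 and 5.51, a difference of -7.13 ± 0.68 (adjusted p = 6.88e-07). Of 21 wound-edge genes 11 had a lower change in Acomys and 1 a higher one. S100a8 changed by 1.38 in Acomys and 5.46 in Mus (-4.08 ± 0.77, adjusted p = 7.13e-04), and Arg1 by -0.94 and 2.65 (-3.59 ± 0.79, adjusted p = 0.00278). Tyrp1 (6.29 ± 0.89), Lef1 (3.23 ± 0.50), Peg3 (4.79 ± 0.48) and C1qtnf3 (5.34 ± 0.46) changed more in Acomys, and so did Lox (2.24 ± 0.26). Of 23 IGF and imprinted growth genes 7 had a higher change in Acomys and 4 a lower one. Mest (-1.80) and Igfbp2 (-3.16) were among those with a lower change.

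Matrix lists differed between species in both directions, beside 13.1% higher and 12% lower of all genes. Of 20 fibrillar and fibril-associated collagens 2 had a higher change in Acomys and 7 a lower one. These counts were 6 and 11 of 30 proteases and inhibitors, and 4 and 8 of 23 basement membrane genes. They were 10 and 3 of 20 collagen processing genes, and 8 and 5 of 25 provisional matrix genes. For several matrix genes no difference was found. Tnc (-0.20 ± 0.39, adjusted p = 0.756), Fn1 (0.39 ± 0.37, adjusted p = 0.480) and Postn (-0.44 ± 0.32, adjusted p = 0.340) had similar estimates in both species, which does not show that they act alike. Col12a1 rose less in Acomys, by -3.87 ± 0.36 (adjusted p = 1.74e-07). Scd1 (0.81 ± 0.42, adjusted p = 0.165) and Adipoq (1.42 ± 0.79, adjusted p = 0.203) were below skin in both species, and without Acomys skin replicate 3 the difference for Scd1 was called (adjusted p = 0.0250). Of 29 follicle regulators tested, 15 had a higher change in Acomys and none a lower one. Of 28 hair keratin and root sheath genes, 0 had a higher change in Acomys and 4 a lower one. Krt40 was among these 4 (-5.40, adjusted p = 8.97e-04). In the oxidative phosphorylation list 24 of 29 had a higher change and none a lower one. Against Acomys skin itself 0 of these 29 rose and 1 fell, with a median of -0.036. The count of 24 is from all libraries, the muscle-poor Mus wounds included. Of 27 vessel genes 2 had a higher change and 9 a lower one.

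**Figure D5:**
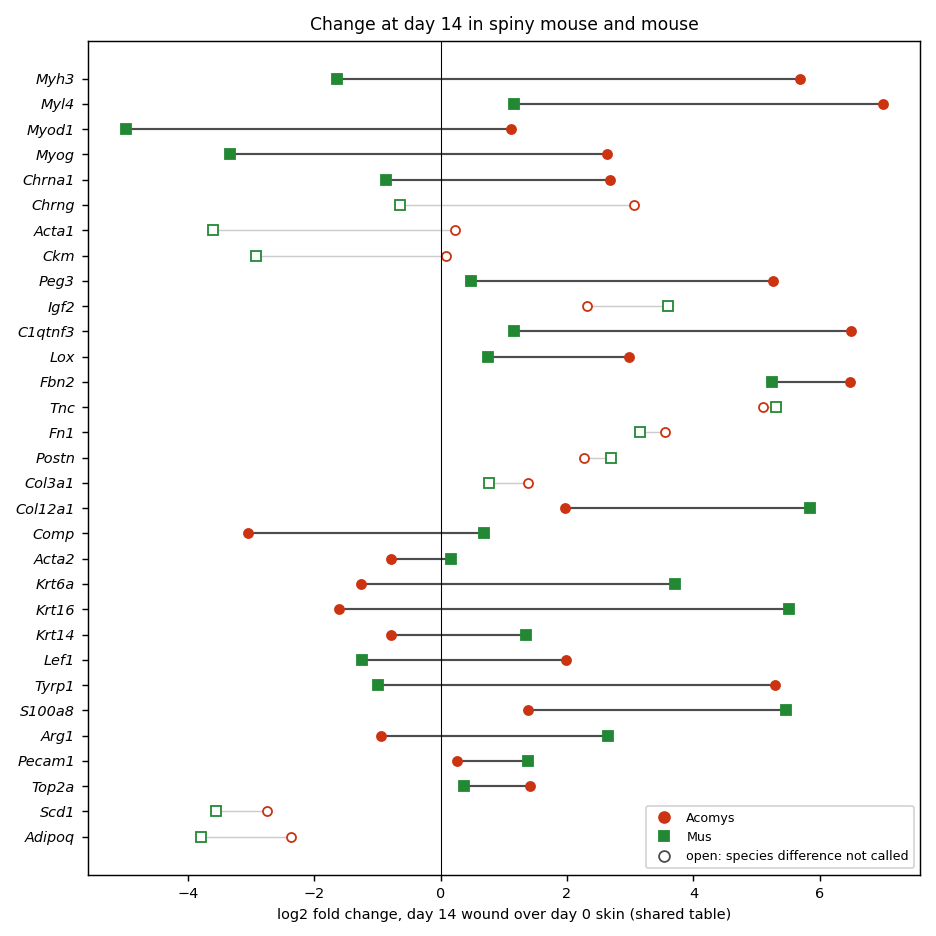
Log2 fold change of day 14 wound over day 0 skin in Acomys (circles) and Mus (squares) for 31 genes, from the table shared by both species; filled symbols mark genes whose species difference passed at adjusted p under 0.05 and open symbols those that did not. Myh3 lies at 5.69 in Acomys and -1.64 in Mus, Krt16 at -1.61 and 5.51, and Tnc at 5.10 and 5.30.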

How the data were processed

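RNA-seq libraries of Acomys cahirinus and CD-1 mouse dorsal skin and wounds were used. The deposited Acomys table holds expected counts per feature of an Acomys assembly, estimated by the authors and rounded here to whole numbers; 6.06% of the values were not whole. The deposited table shared by both species holds whole-number counts per gene symbol. FastQC 0.11.4, Trimmomatic 0.32, RSEM 1.2.28 and Bowtie2 are named in the submitters' processing notes, without roles; how symbols were given to assembly features, and how the shared table was made, is not given in the sources used here.

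Of 144683 features, 49 spike-in rows were dropped before library sizes were computed, and the 128120 without a symbol entered the same fit (20770 passed the filter) but are not described. With edgeR 4.0.16 in R 4.3.3 (TMM scaling, filterByExpr by group, robust quasi-likelihood test, two-sided, Benjamini-Hochberg adjustment over all 36053 features tested), the 12 Acomys libraries entered 1 fit and the 23 libraries of the shared table another, whose interaction contrast over 14514 genes gave the species difference. SEs were taken from the fold change and its F value. A pool of normalised libraries was not analysed here. Groups came from the labels; the replicate numbers of the titles do not say that samples share an animal. A simulation for the day 14 and day 0 contrast covered all 36053 features, with 100 changed 2-fold, 100 changed 4-fold and the rest unchanged. Of these, 32 of the 2-fold and 79 of the 4-fold changes were recovered, none in the wrong direction, and 6.72% of calls were false. False calls made up 10.1% for day 14 against day 7 and 5.37% for the species difference. A much larger share of features was called in the data (22.2%), so these recovery rates do not measure recovery there. Alternatives were RLE size factors, no filter, DESeq2 1.42.0, only the groups compared, only features with a symbol, a replicate block, a 2-fold minimum and leaving out each library; leaving out the muscle-poor Mus wounds was chosen after seeing the data.

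The members, the 40 lists (1024 members) and the tests were chosen with earlier results of these data known. Named genes are a fixed set, 12 genes with the largest rise and 12 with the largest fall (no overlap, at least 1 CPM), up to 5 risen and 5 fallen members of each list by smallest p, and members of counts of 5 or fewer. Of the listed genes in the table, 27 did not pass the filter. Families with near-identical members, such as keratins, myosin heavy chains and S100 proteins, may share reads in these counts. A few genes that this rule names are not reported here.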

Additional observations from a re-analysis of the deposited data

Results flagged for a closer look

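In 88 genes, the 4 libraries of skin and of wound were each checked for 1 library apart from the other 3. Of 176 groups, 16 held one. Chance gives about 1 in 20 groups where values are spread normally, which counts near 0 are not, so the 2 rates are not compared. Skin replicate 2 stood apart for 5 root sheath genes, at 256 CPM for Krt25, 126 CPM for Krt27, 224 CPM for Krt71, 28.4 CPM for Krt73 and 296 CPM for Tchh. Skin replicate 1 stood apart for Myh7 (519 CPM) and Tnc (35.6 CPM), and skin replicate 3 for Chrna1 (3.92 CPM). Near the limit of detection, skin libraries stood apart for Agtr2 (0.157 CPM) and Col26a1 (0.392 CPM), on a handful of counts. The same held for Arhgap36 (0.0664 CPM), Dynap (0.0675 CPM) and Sohlh2 (0.0675 CPM), on 1 count each. With 0 in the other 3 skin libraries, the check had to flag these 3 genes. Wound replicate 2 was apart for Ttn (18015 CPM) and Myh7 (324 CPM), and wound replicate 1 for Sox10 (2.11 CPM).

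The change from skin to day 14 differed between Acomys and Mus (edgeR interaction, adjusted p under 0.05) for 32 of 81 genes with a species test. Of these, 16 were higher and 16 lower in Acomys, and 25.1% of all 14514 genes differed (13.1% higher, 12% lower). The genes checked are the fixed set and those with the largest Acomys rises and falls. That choice favours species differences, so their count is not comparable with the share of all genes. Higher by log2 were Myh3 (7.33), Myod1 (6.10), Myog (5.98), Myl4 (5.83), C1qtnf3 (5.34), Myh8 (5.29), Myh1 (4.77), Myf5 (3.69), Chrna1 (3.55), Lef1 (3.23), Plin1 (2.01), H19 (1.746), Col1a2 (1.54), Fbn2 (1.24), Top2a (1.04) and Axin2 (0.93). Lower were Krt25 (-8.88), Krt73 (-8.43), Myh7 (-7.48), Krt16 (-7.13), Krt71 (-6.27), Krt6a (-4.97), S100a8 (-4.08), Col12a1 (-3.87), Gm6484 (-3.84), Comp (-3.73), Arg1 (-3.59), Krt14 (-2.15), Krt17 (-1.80), Pecam1 (-1.12), Wnt5a (-1.02) and Acta2 (-0.96). The calls of Myh1, Myh8, Krt17, Krt25, Krt71, Krt73, Acta2, Plin1, Fbn2 and Gm6484 were lost when at least 1 library was left out. For Fbn2 this was Mus skin replicate 1 (adjusted p = 0.0742). The call of Wnt5a was lost without the 2 muscle-poor Mus wounds. Of 21 alternative settings, 15 ended the calls of Krt17, Krt25 and Krt71, and 14 that of Krt73. The call of Plin1 was lost in 9, those of Myh1 and Acta2 in 5, and those of Myh8, Fbn2 and Gm6484 in 1.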

How the results depend on the processing

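No count of called genes moved by over 1.5 times except under the 2-fold minimum, where 2147 genes differed from skin, 2528 from day 7 and 1924 between species. When each library was left out in turn the counts were 3851 to 4671 against skin, 4118 to 5221 against day 7 and 2898 to 3659 between species. Without the muscle-poor Mus wounds 2840 genes differed between species. Of the genes called against skin 58% were higher; the share was 67.8% with no filter and 49.1% without skin replicate 3. With the replicate number as a block 4611 genes were called against skin, 4483 of them shared with the unblocked fit, and 5251 and 3907 in the other comparisons; hair keratins risen went from 5 to 18. Of the 280 named genes called, 10 were not called with the block, among them Smpx, Emr1, Ccl2, Cma1 and Ivl, and 5 uncalled ones were, among them Inhba, Krt71 and Lgr5. Same-numbered libraries of skin and day 14 did not deviate together (correlations 0.01, 0.32, -0.26 and -0.14), so the numbers were not taken to pair samples. Between day 7 and day 14 the same-numbered correlations were all positive (0.25, 0.02, 0.17 and 0.01). Differently numbered libraries of those days ranged from -0.23 to 0.21, so these values do not settle a pairing there. The comparison with day 7 was fitted unpaired. Of 280 called named genes 244 kept the call against skin in every setting and 36 lost it in at least 1, none changed direction, and 18 of 53 uncalled ones were called in at least 1. Further list counts that moved by over 1.5 times included immediate early genes fallen (9, and 4 without skin replicate 2 or wound replicate 3 or 4, or 5 without skin replicate 4), interferon genes risen (3, and 1 without skin replicate 3 or 4 or wound replicate 2 or 3), cytokines fallen (4, and 2 without wound replicate 2, 3 or 4), Hox genes risen (4, and 2 without skin replicate 3 or 4 and 1 without wound replicate 2 or 3) and glycolysis genes fallen (5, and 3 without skin replicate 4 or 8 with only features with a symbol). The cause of these shifts was not tested. Depth limits genes with few counts in skin; for those with 1 to 3 counts no fold is given.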

Other observations

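Of 8 genes of neighbouring tissues that skin should hold little of, 2 rose. Acan, aggrecan of cartilage and follicle sheaths, was at 0.437, 0.549, 0.797 and 0.202 CPM in skin and 31.2, 22.0, 26.0 and 24.8 CPM in the wounds and rose by 5.69 ± 0.32 (edgeR adjusted p = 8.10e-10). Ibsp, a bone sialoprotein, was at 0.4997, 0.471, 0.664 and 0.607 CPM in skin and 4.64, 5.53, 4.68 and 2.68 CPM in the wounds and rose by 2.94 ± 0.33 (adjusted p = 4.30e-06). All wounds lay above all skin libraries for both genes. In the shared table the change of Acan did not pass the species test (adjusted p = 0.148), and it was called without Mus wound replicate 2 (adjusted p = 0.00739).

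Among 21 immediate early and handling genes, which respond within minutes to disturbance of tissue, 9 fell and 1 rose. Egr3 was at 54.7, 64.5, 58.4 and 55.8 CPM in skin and 28.7, 28.6, 25.2 and 26.8 CPM in the wounds (-1.09 ± 0.20, adjusted p = 4.72e-04), and Atf3, a stress factor, rose by 1.17 ± 0.27. Of 24 Hox and positional genes 4 rose and 1 fell; Hoxc9, a gene of trunk identity, was at 0.375, 0.628, 0.266 and 0.0675 CPM in skin and 1.46, 3.04, 2.34 and 0.682 CPM in the wounds (2.46 ± 0.49, adjusted p = 0.00132), and Hoxb6 fell by 1.17 ± 0.30. Neither red blood cell gene tested was called.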
